A study of Homo sapiens with 6 samples.

Results

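The lysosome genes of WPMY-1 prostate stromal cells were compared between cells with lowered CAVIN1 and control cells. The set held 37 named genes of the lysosome, of autophagy and of the MiT/TFE family of transcription factors, of 33117 rows in the table, and all 37 were found by symbol. It was chosen by name and sorted by role into 6 genes of the MiT/TFE factors and their nutrient switch, 16 lysosomal hydrolases with an activator, 4 lysosomal membrane proteins, 5 proton pump genes and 6 autophagy genes. WPMY-1 is an immortalised line of stromal cells from the human normal prostate. The shCtrl group (3 libraries) carried the pLKO1 vector, and the shCAVIN1 group (3 libraries) carried 1 hairpin against CAVIN1, a coat protein of caveolae. Both were delivered by lentivirus made in HEK293T cells and kept by puromycin selection, in the same medium with serum, and total RNA was sequenced. The design text calls the replicates independent, and the labels speak of stable clones, but neither says what separates one replicate from the next. The p-values therefore rest on the spread among these 6 libraries, which may be technical.

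The lysosome is the acidic compartment in which hydrolases break down proteins, glycans and lipids. The hydrolases need the low pH that the vacuolar proton pump maintains. Autophagy delivers cytoplasm and organelles to it inside double-membraned vesicles. TFEB, TFE3 and MITF bind short E-box-like sequences in the promoters of many lysosome and autophagy genes, and they are held in the cytoplasm when the Rag GTPases and mTORC1 sense nutrients at the lysosome. RNA levels do not show where these factors are in the cell.

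Values are FPKM (fragments scaled by transcript length and by the mapped fragments of the library), which can be compared between genes because they are per length. Means are given ± SD with n = 3 per group. Log2 fold changes are shCAVIN1 minus shCtrl on the log2(FPKM + 0.5) scale with the standard error (SE) from limma, which understates the change of low genes, and folds are plain ratios of mean FPKM. Adjusted p is limma's with Benjamini-Hochberg adjustment over 13941 tested genes, with a threshold of 0.05. CAVIN1, listed under its older symbol PTRF, was checked first, and values here and below are in the order of replicates 1 to 3. It measured 329.6, 346.9 and 330.3 FPKM in shCtrl against 133.9, 138.8 and 150.2 FPKM in shCAVIN1, or 42% of control (log2 -1.25, SE 0.0586, adjusted p = 2.88e-05). For one gene taken alone, the smallest two-sided p of an exact permutation test with 3 libraries per group is 0.1. The 10 stromal and fibroblast markers averaged at least 1 FPKM, and they moved both ways in shCAVIN1: COL1A2, COL3A1, FN1, TAGLN and THY1 fell, while ACTA2 rose from 4.94 ± 0.289 to 9.89 ± 0.287 FPKM and S100A4 from 3.05 ± 0.393 to 22.4 ± 0.236 FPKM. Of 9 prostate epithelial markers, KRT18 (211.3 to 405.3 FPKM over the libraries) and KRT8 (22.8 to 28.9 FPKM) were present and EPCAM, CDH1 and KLK3 were below 0.6 FPKM in every library. The epithelial list summed to 399.6 to 433.5 FPKM in shCtrl and 243.9 to 259 FPKM in shCAVIN1. The 5 endothelial markers summed to 0.26 to 0.396 and to 1.15 to 1.2 FPKM. The part of these lists in the results below was not tested. In bulk RNA, a lower share of expressing cells and less RNA per cell cannot be told apart.

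Of the 37 members, 18 rose and 9 fell in shCAVIN1, and 10 did not pass the test. Among all tested genes, 55.5% were called, 27.3% higher and 28.2% lower. The called share of members was 73%, and the median of their log2 fold changes was 0.15, against -0.02 over all tested genes. The members were chosen with earlier results of these data known, and the part of that choice in the shares here and below was not tested. The libraries of both groups did not overlap for 29 members, beside 64.6% of all tested genes. On the log2 scale, 9 of the rises and 4 of the falls reached 0.5, which is 35.1% of the members beside 23.3% of all tested genes. TFE3 and WIPI1 were the 2 members past 2-fold on that scale, as were 5.54% of all tested genes. Between replicates, the coefficient of variation of a member had a median of 6.47% in shCtrl and 4.02% in shCAVIN1, and was highest for MAP1LC3B (19.4%) in shCtrl and for TFEB (14.8%) in shCAVIN1. When each library was rescaled to the same FPKM sum (TPM), 11 members rose and 2 fell, while over all genes 2254 rose and 1242 fell, against 3807 and 3927 on the deposited scale, and the median of all genes moved from -0.02 to 0.09. The calls of 13 members held under every alternative in which they were tested: MITF, TFE3, RRAGC, RRAGD, CTSB, CTSL, GAA, NAGLU, LAMP1, GPNMB, GABARAPL1, WIPI1 and UVRAG.

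**Figure D1:**
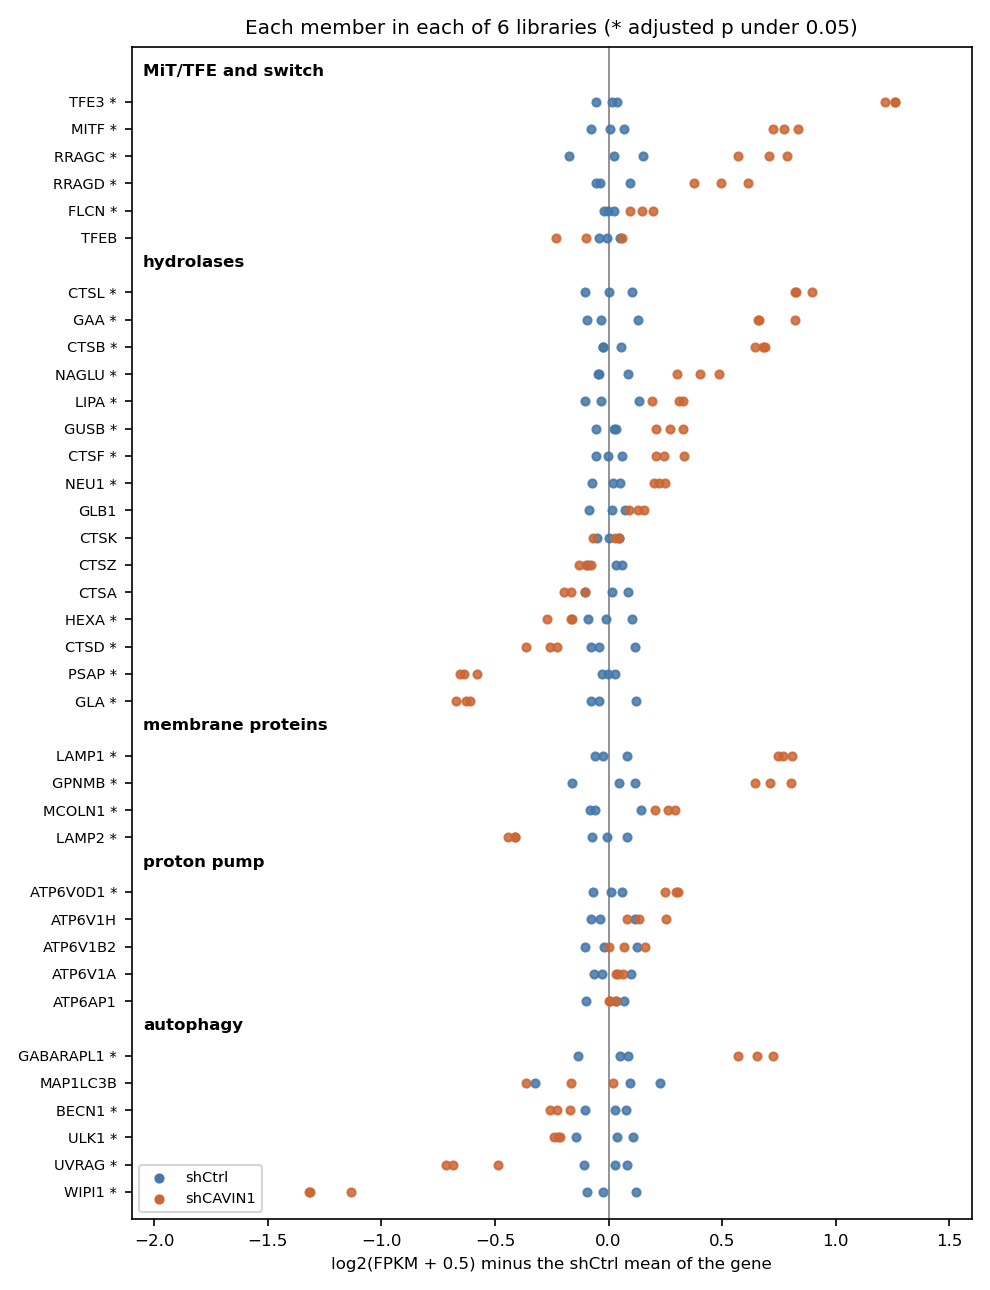
Each of the 37 members (rows, sorted by role and by change) in each of 6 libraries. The x axis is log2(FPKM + 0.5) minus the shCtrl mean of the gene, blue points are shCtrl, orange points are shCAVIN1, and an asterisk marks an adjusted p under 0.05. TFE3 at the top of its role and WIPI1 at the foot of the autophagy genes are the members whose groups lie farthest apart.

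Of the MiT/TFE factors, TFE3 and MITF rose and TFEB did not pass the test. TFE3, on chromosome X at 49028726 to 49043486 (GRCh38, minus strand), measured 11.8, 12.6 and 12.4 FPKM in shCtrl against 29.2, 30.1 and 30.1 FPKM in shCAVIN1. The groups lay far apart for this gene, and its mean of 12.3 ± 0.464 FPKM rose 2.43-fold to 29.8 ± 0.492 FPKM (log2 fold change 1.25 with SE 0.0426, adjusted p = 1.13e-05). MITF, on chromosome 3 at 69739435 to 69968337 (plus strand), is the family member known for the melanocyte lineage, where a shorter isoform is made, and the deposited values are for the gene as a whole. It stood at 5.41, 5.17 and 4.85 FPKM in shCtrl and at 8.8, 9.54 and 9.13 FPKM in shCAVIN1, each shCAVIN1 library above each shCtrl library (1.78-fold, log2 0.78, SE 0.0565, adjusted p = 0.000125). TFEB, the member best known for lysosome biogenesis, was the lowest of the 3, at 1.09, 1.2 and 1.13 FPKM in shCtrl and 0.898, 1.03 and 1.21 FPKM in shCAVIN1. The TFEB values of the groups overlapped (log2 -0.09, SE 0.0975, adjusted p = 0.444). TFEC, the remaining family member, stayed below 0.02 FPKM in every library. Summed over MITF, TFEB and TFE3, the level went from 18.6 ± 0.393 to 40 ± 0.928 FPKM, and TFE3 made up 66.1% ± 1.59 of that sum in shCtrl and 74.5% ± 0.542 in shCAVIN1.

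Melanocyte and osteoclast markers were checked because MITF, GPNMB and CTSK are high in those cells. Of 6 melanocyte markers, 1 (PMEL) averaged at least 1 FPKM and TYR was listed at 0 in every library. The summed level of the list was 2.57 to 3.14 FPKM in shCtrl and 1.49 to 1.85 FPKM in shCAVIN1, and PMEL, a pigment-cell target of MITF, was at 1.97, 1.92 and 1.85 FPKM in shCtrl and at 0.949, 1.15 and 1.17 FPKM in shCAVIN1 (adjusted p = 0.00131), lower where MITF was higher. Of 6 osteoclast markers, TNFRSF11A averaged at least 1 FPKM and DCSTAMP and OCSTAMP were listed at 0 in every library, with a summed level of 1.41 to 1.8 FPKM in shCtrl and 1.39 to 1.44 FPKM in shCAVIN1. The 8 macrophage and leukocyte markers summed to 1.21 to 1.53 FPKM and to 0.655 to 0.834 FPKM, with CD163, TYROBP and SPI1 listed at 0 in every library. The part of these 3 lists in the values of MITF, GPNMB and CTSK was not tested.

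**Figure D2:**
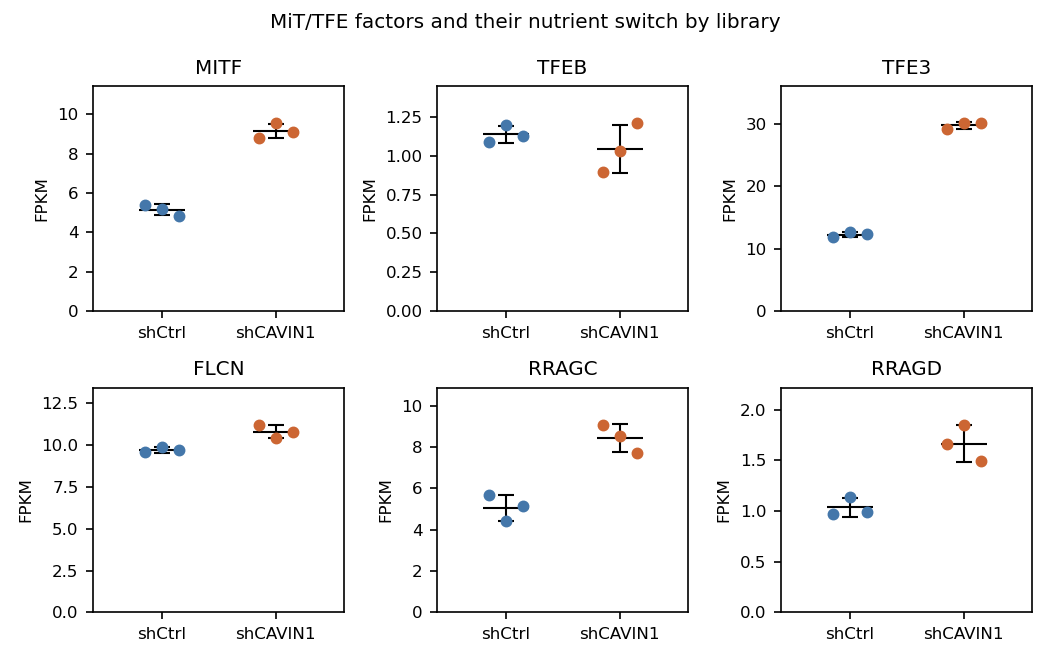
FPKM (y axes, from 0) of the 3 MiT/TFE factors and of FLCN, RRAGC and RRAGD in the 3 shCtrl and 3 shCAVIN1 libraries. Points are libraries, and bars are the mean ± SD. The groups overlap for TFEB and are separate for the other 5 genes.

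All 3 members of the switch that ties these factors to nutrients rose. With the 3 factors, the called share of the 6 genes was 83.3%, beside 55.5% of all tested genes. RRAGC and RRAGD encode the Rag GTPases that recruit mTORC1 and the MiT/TFE factors to the lysosome. RRAGC was at 5.66, 4.41 and 5.13 FPKM in shCtrl and at 9.06, 8.54 and 7.72 FPKM in shCAVIN1, without overlap (1.67-fold, log2 0.69, SE 0.0991, adjusted p = 0.0017). It shares 22.9% of its exonic bases with AL139260.2 on the same strand, which was not analysed here. RRAGD, a known MiT/TFE target, was lower in level, at 0.976, 1.14 and 0.993 FPKM in shCtrl and 1.66, 1.85 and 1.49 FPKM in shCAVIN1 (1.61-fold, log2 0.49, SE 0.0923, adjusted p = 0.00487). FLCN, the folliculin that activates RRAGC and RRAGD as a GTPase-activating protein, rose by a small step from 9.72 ± 0.163 to 10.8 ± 0.392 FPKM (log2 0.15, adjusted p = 0.027). FLCN lost its call after rescaling to TPM (log2 0.27), after scaling to the protein-coding sum (0.13), and without shCAVIN1 replicate 1 (0.12), shCAVIN1 replicate 3 (0.15), shCtrl replicate 1 (0.14) or shCtrl replicate 3 (0.15).

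The promoters of the members were searched for sequences that MiT/TFE factors are known to bind. RefSeq windows of 250 bases before to 50 after a start (GRCh38.p14) were matched by symbol for 26 of the 37 members. The motifs were the CLEAR core TCACGTGA, the E-box CACGTG that lies within it, and the M-box TCATGTG, each on both strands. The CLEAR core was in the windows of 5 of the 26 members (19.2%): LAMP1, MCOLN1, GAA, ATP6V0D1 and CTSA. It was in 1.18% of 27305 genes with a window and in 2.27% of the 9616 of these that were tested. The first 4 rose and CTSA did not pass the test, so the count was 4 of 15 rising members, 0 of 5 falling members and 1 of 6 that did not pass. The falling members PSAP, HEXA, LAMP2 and UVRAG and the rising members CTSB, RRAGD and NAGLU had no window. They were not searched, and neither were CTSK, ATP6V1A, ATP6V1B2 and ATP6V1H. With so few falling members searched, the difference between the counts was not tested. Among further genes of the pathway, whose lists are described below, the CLEAR core was in 17 of 159 with a window (10.7%). Of these 17, RRAGB, CLN3, ATP6V1G1 and NRBF2 rose, GALNS, SLC36A1 and VPS11 fell, and the rest did not pass. The E-box, within a CLEAR core or not, was in 9 of the 26 members (34.6%, against 12.4% of tested genes and 8.77% of all genes with a window), which added RRAGC, CTSD, CTSF and NEU1. The M-box was in 2 members, GPNMB and CTSA (7.69%, against 2.4% of tested genes and 3.59% of all genes with a window). Among the 159 further pathway genes with a window, the E-box was in 22.6% and the M-box in 11.3%, the latter above the share of members. The 30 bases around each CLEAR core are shown to let the sites be compared, 5′ to 3′ on the gene's strand with the motif in capitals. The GPNMB sites, and the CTSA site of a gene that did not pass, were added after the values were seen, and the GPNMB capitals are the M-box read on the other strand. LAMP1 holds a pair of CLEAR cores close to its start, MCOLN1 and GAA hold a pair each, and ATP6V0D1 and CTSA hold 1 each.
LAMP1, chr13:113297199-113297228, plus strand: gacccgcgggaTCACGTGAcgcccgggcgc
LAMP1, chr13:113297226-113297255, plus strand: cgcggcgcagcTCACGTGAcaagcgctgcc
MCOLN1, chr19:7522571-7522600, plus strand: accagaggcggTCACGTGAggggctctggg
MCOLN1, chr19:7522598-7522627, plus strand: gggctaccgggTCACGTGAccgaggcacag
GAA, chr17:80101493-80101522, plus strand: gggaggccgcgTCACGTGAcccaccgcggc
GAA, chr17:80101538-80101567, plus strand: gctcccgccggTCACGTGAcccgcctctgc
ATP6V0D1, chr16:67481199-67481228, minus strand: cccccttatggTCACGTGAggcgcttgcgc
CTSA, chr20:45891298-45891327, plus strand: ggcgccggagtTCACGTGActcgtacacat
GPNMB, chr7:23246641-23246669, plus strand: tgagtcataagCACATGAgttgtaagagg
GPNMB, chr7:23246702-23246730, plus strand: cttaataccatCACATGAtcctccccgag
A match of letters is a description of these windows and does not show that a factor binds there.

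The lysosomal hydrolases did not move as a block: 8 of the 16 rose, 4 fell and 4 did not pass. Their called share was 75%, beside 55.5% of all tested genes, of which 27.3% were higher and 28.2% lower. The cysteine proteases CTSB and CTSL and the glycogen-degrading GAA rose most, while PSAP and GLA, which act on sphingolipids, fell most. The median log2 fold change of the 16 was 0.17, and values ran from -0.63 to 0.84. After rescaling to TPM, 4 of them rose, the calls of the 4 that fell were lost, and the median was 0.29.

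Among the cathepsins, the proteases of the lysosome, CTSL was at 13.6, 15.8 and 14.7 FPKM in shCtrl and at 27.7, 26.4 and 26.3 FPKM in shCAVIN1. Every shCAVIN1 library lay above the shCtrl libraries for CTSL (1.82-fold, log2 0.84, SE 0.0606, adjusted p = 0.000119). CTSB was at 50.3, 53.2 and 50.3 FPKM in shCtrl and at 80.5, 82.5 and 82.8 FPKM in shCAVIN1, again with the groups far apart (1.6-fold, log2 0.67, SE 0.041, adjusted p = 7e-05). CTSF, another cysteine cathepsin, rose 1.2-fold from 17.6 ± 0.706 FPKM (adjusted p = 0.00568). CTSK, the collagen-degrading cathepsin of osteoclasts, was at the same low mean in both groups, 1.17 ± 0.0558 and 1.17 ± 0.0737 FPKM, and CTSZ was at 38.6 ± 2.14 and 35.9 ± 0.678 FPKM. Neither of these passed the test. The 5 cysteine cathepsins summed to 118.3, 128.7 and 123.2 FPKM in shCtrl and to 167.5, 167.6 and 165.9 FPKM in shCAVIN1.

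The aspartic protease CTSD, the most abundant cathepsin in shCtrl, went the other way, falling to 73 ± 3.61 FPKM in shCAVIN1 against 88.9 ± 6.52 FPKM in shCtrl (log2 -0.28, SE 0.0675, adjusted p = 0.0132). The readthrough gene AC068580.4, not analysed here, shares 41.7% of the exonic bases of CTSD on the same strand. The serine carboxypeptidase CTSA, which also protects the galactosidase GLB1 and the sialidase NEU1 in a complex, was at 45.9 ± 3.03 and 41.1 ± 1.36 FPKM and did not pass (log2 -0.15, adjusted p = 0.0666). In the same complex, NEU1 rose 1.17-fold to 21.1 ± 0.343 FPKM (adjusted p = 0.00746), and GLB1 was at 19.9 ± 1.16 and 21.7 ± 0.515 FPKM without passing. CTSA shares 17.7% of its exonic bases with NEURL2 and 3.42% with PLTP, both on the opposite strand, and PLTP was at 41% of control. The call of CTSD was lost after rescaling to TPM (log2 -0.16), as were those of CTSF (0.38) and NEU1 (0.34). CTSA passed without shCtrl replicate 3 (log2 -0.21), CTSZ without shCtrl replicate 1 (-0.15) and GLB1 without shCtrl replicate 2 (0.16).

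PSAP, GLA and HEXA, which serve the breakdown of sphingolipids, fell. PSAP, the precursor of the saposins that present sphingolipids to their hydrolases, was the most abundant member in both groups. It stood at 247.1, 252.4 and 242.5 FPKM in shCtrl and at 165.4, 159.1 and 157.2 FPKM in shCAVIN1, or 64.9% of control, with no overlap (log2 -0.62, SE 0.0445, adjusted p = 0.000119). GLA, the alpha-galactosidase that removes galactose from globotriaosylceramide, was at 23.2, 26.7 and 23.8 FPKM in shCtrl and at 15.9, 15.7 and 15.2 FPKM in shCAVIN1, or 63.6% of control (log2 -0.63, SE 0.0613, adjusted p = 0.000342). Both calls were lost after rescaling to TPM, at log2 fold changes of -0.50 for PSAP and -0.52 for GLA. HEXA, the alpha subunit of beta-hexosaminidase, fell from 51.6 ± 3.6 to 44.8 ± 1.91 FPKM (log2 -0.20, adjusted p = 0.0363). HEXA lost its call after rescaling to TPM (log2 -0.08) and without shCAVIN1 replicate 1 (-0.22), 2 (-0.22) or 3 (-0.16) or shCtrl replicate 1 (-0.21).

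The enzymes of glycogen, glycosaminoglycan and neutral lipid breakdown rose. GAA, the acid alpha-glucosidase that degrades glycogen, was at 2.92, 2.43 and 2.56 FPKM in shCtrl and at 4.45, 5.03 and 4.44 FPKM in shCAVIN1, all 3 shCAVIN1 libraries above shCtrl (1.76-fold, log2 0.71, SE 0.0828, adjusted p = 0.000711). NAGLU, an enzyme of heparan sulfate breakdown, rose 1.34-fold from 6.8 ± 0.392 to 9.12 ± 0.609 FPKM (log2 0.40, adjusted p = 0.0031). LIPA, the acid lipase that releases cholesterol from lipoprotein esters, rose 1.21-fold from 31.6 ± 2.75 to 38.3 ± 2.02 FPKM (log2 0.28, adjusted p = 0.0199). GUSB, the beta-glucuronidase, rose 1.21-fold from 18.1 ± 0.617 to 21.9 ± 0.914 FPKM (adjusted p = 0.00427). GUSB is uncertain because the genome holds many partial copies, of which GUSBP1 was at 34.6 FPKM in shCtrl and fell to 75.6% of that level. LIPA lost its call after rescaling to TPM (log2 0.40) and without shCAVIN1 replicate 2 (0.25), shCAVIN1 replicate 3 (0.26) or shCtrl replicate 3 (0.26), and GUSB lost it after rescaling to TPM (0.39).

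Summed over genes, the hydrolase and activator transcripts were lower in shCAVIN1, and without the activator PSAP the hydrolases were slightly higher. The 16 members summed to 678.5, 697.6 and 659.9 FPKM in shCtrl and to 617.4, 622.4 and 617 FPKM in shCAVIN1, or 91.2% of control, although more of them rose than fell. Without PSAP, the other 15 summed to 431.5, 445.2 and 417.4 FPKM in shCtrl and to 452, 463.3 and 459.8 FPKM in shCAVIN1, or 106.3% of control. These sums are descriptions with no test.

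**Figure D3:**
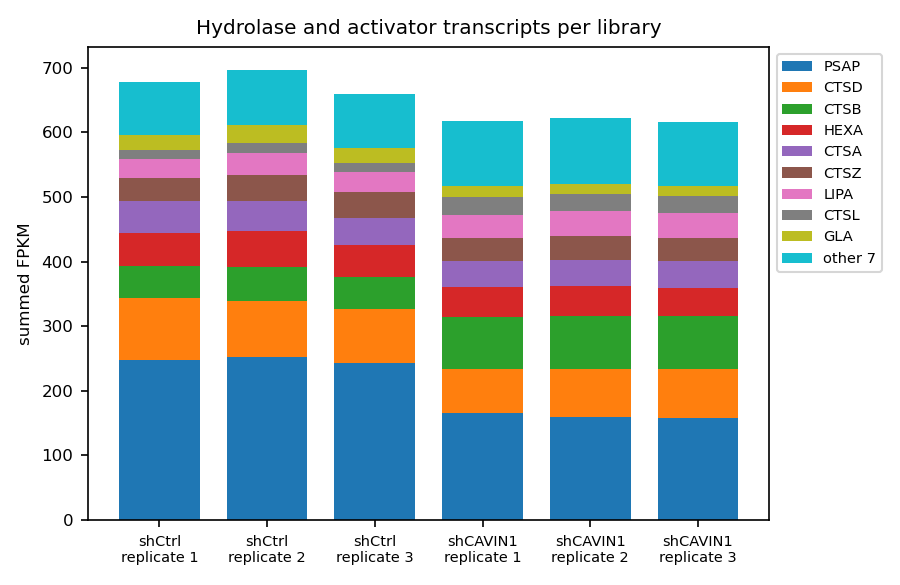
Summed FPKM (y axis, from 0) of the 16 hydrolase and activator members in each library, with 9 of them each in its own colour and the other 7 together. The PSAP block shrinks from 242.5 to 252.4 FPKM in the shCtrl libraries to 157.2 to 165.4 FPKM in the shCAVIN1 libraries, while the CTSB and CTSL blocks widen.

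The lysosomal membrane proteins LAMP1 and LAMP2, which line the inner face of the limiting membrane as a glycan coat, moved in opposite directions. LAMP1, on chromosome 13 at 113297241 to 113323672 (plus strand), was at 55.1, 60.8 and 56.4 FPKM in shCtrl and at 96.6, 98 and 100.8 FPKM in shCAVIN1 (1.71-fold, log2 0.77, SE 0.0503, adjusted p = 8.5e-05). LAMP2, on chromosome X at 120427827 to 120469365 (minus strand), was at 52.7, 58.7 and 55.1 FPKM in shCtrl and at 40.6, 41.6 and 41.6 FPKM in shCAVIN1, or 74.4% of control (log2 -0.42, SE 0.0494, adjusted p = 0.000738). In neither gene did the groups overlap. The ratio of LAMP1 to LAMP2 was 1.04, 1.04 and 1.02 in shCtrl and 2.38, 2.35 and 2.43 in shCAVIN1, so that near-equal levels became unequal. The splice forms of LAMP2, of which LAMP2A serves chaperone-mediated autophagy, are not separated in the deposited values. The call of LAMP2 was lost after rescaling to TPM (log2 -0.30), and that of LAMP1 was not.

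GPNMB, a glycoprotein of lysosomes and melanosomes and a known MiT/TFE target, was at 2.57, 2.73 and 2.16 FPKM in shCtrl and at 4.7, 4.37 and 4.15 FPKM in shCAVIN1. Its groups were separate (1.77-fold, log2 0.72, SE 0.089, adjusted p = 0.000907). MCOLN1, the calcium channel through which the lysosome signals to calcineurin and TFEB, rose 1.22-fold from 3.63 ± 0.361 to 4.41 ± 0.145 FPKM (log2 0.25, adjusted p = 0.0275). The call of MCOLN1 was lost after rescaling to TPM (log2 0.37), after scaling to the protein-coding sum (0.24), with no filter on low values (0.25), and without shCAVIN1 replicate 1 (0.28), 2 (0.25) or 3 (0.24) or shCtrl replicate 1 (0.22) or 2 (0.21).

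Of the 5 proton pump members, 1 rose and 4 did not pass, a called share of 20% beside 55.5% of all tested genes. ATP6V0D1, which joins the membrane sector of the pump to its central stalk, was at 50.4, 52 and 47.6 FPKM in shCtrl and at 59.5, 61.8 and 61.5 FPKM in shCAVIN1 (1.22-fold, log2 0.28, SE 0.0465, adjusted p = 0.00287). Of the pump's catalytic head, ATP6V1A was at 33.8 ± 2.07 and 34.8 ± 0.412 FPKM. ATP6V1B2, its ATP-binding partner, was at 23.6, 25 and 27.7 FPKM in shCtrl and 28.4, 26.6 and 25.4 FPKM in shCAVIN1, with the groups overlapping. ATP6V1H, a regulatory subunit, was at 18.2, 20.3 and 17.7 FPKM in shCtrl and 20.6, 19.8 and 22.4 FPKM in shCAVIN1, also overlapping. The accessory protein ATP6AP1 was at 53.7 ± 3.31 and 54.1 ± 0.596 FPKM. The 4 log2 fold changes lay between 0.01 and 0.16 with SE up to 0.073. ATP6V0D1 lost its call after rescaling to TPM (log2 0.41), and without shCtrl replicate 2 ATP6V1A (0.09) and ATP6V1H (0.22) passed as well, which made the count 3 of 5.

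The autophagy members fell more often than they rose: 4 of 6 fell, 1 rose and 1 did not pass. Over all tested genes, 28.2% were lower and 27.3% higher. The 4 falls became 2 without shCAVIN1 replicate 1, shCAVIN1 replicate 2 or shCtrl replicate 3, and after rescaling to TPM. WIPI1, which binds phosphatidylinositol 3-phosphate on forming autophagosomes and is often read as an MiT/TFE target, showed the largest fall of the 37. It was at 6.85, 7.63 and 6.51 FPKM in shCtrl and at 2.5, 2.51 and 2.91 FPKM in shCAVIN1, or 37.8% of control (log2 -1.25, SE 0.0823, adjusted p = 8.8e-05). No shCAVIN1 library came near a shCtrl library for WIPI1. On chromosome 17 (68420948 to 68457513, minus strand), 24.3% of its exonic bases are shared with ARSG on the opposite strand, which was at 1.04 FPKM in shCtrl and 94.1% of that in shCAVIN1. UVRAG, a subunit of a lipid kinase complex of autophagosome maturation and endocytosis, was at 10.5, 9.15 and 10.1 FPKM in shCtrl and at 6.92, 5.83 and 5.96 FPKM in shCAVIN1, or 62.7% of control without overlap (log2 -0.63, SE 0.083, adjusted p = 0.00115). BECN1, which shares that complex, fell from 22.6 ± 1.46 to 19.3 ± 0.585 FPKM (log2 -0.22, adjusted p = 0.0187). It shares 12.4% of its exonic bases with CNTD1 on the opposite strand, which was at most 0.293 FPKM, and 4.68% with PSME3 on the opposite strand, which was at 19.8 ± 1.02 FPKM in shCtrl and 20.3 ± 0.534 FPKM in shCAVIN1. ULK1, the kinase that starts autophagy, fell from 3.84 ± 0.383 to 3.2 ± 0.0299 FPKM (log2 -0.23, adjusted p = 0.0432).

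The genes of the ubiquitin-like proteins that coat autophagosomes differed from each other. Outside the members, MAP1LC3A (log2 -0.76), MAP1LC3C (-0.55), GABARAP (-0.26) and GABARAPL2 (-0.22) all fell past the threshold, so the rise of GABARAPL1 was not shared by them. GABARAPL1 was at 14.6, 17.1 and 16.7 FPKM in shCtrl and at 24.1, 25.6 and 26.9 FPKM in shCAVIN1, with every shCAVIN1 library higher (1.58-fold, log2 0.65, SE 0.0745, adjusted p = 0.000688). Its near-identical copy GABARAPL3 stayed below 0.02 FPKM in every library. MAP1LC3B, the LC3 protein most used as a marker of autophagosomes, was at 24.1, 16.3 and 21.9 FPKM in shCtrl and at 20.8, 18.2 and 15.8 FPKM in shCAVIN1, and its groups overlapped (log2 -0.17, SE 0.164, adjusted p = 0.409). The calls of BECN1 and ULK1 were lost after rescaling to TPM (log2 -0.10 and -0.12). BECN1 also lost it without shCAVIN1 replicate 1 (-0.20), shCAVIN1 replicate 2 (-0.21) or shCtrl replicate 3 (-0.20). ULK1 lost it without shCAVIN1 replicate 1 (-0.23), 2 (-0.23) or 3 (-0.22), without shCtrl replicate 1 (-0.17) or 3 (-0.21), with either other filter (-0.23 for both), and with ratio (-0.22), protein-coding (-0.24) or quantile (-0.16) scaling.

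**Figure D4:**
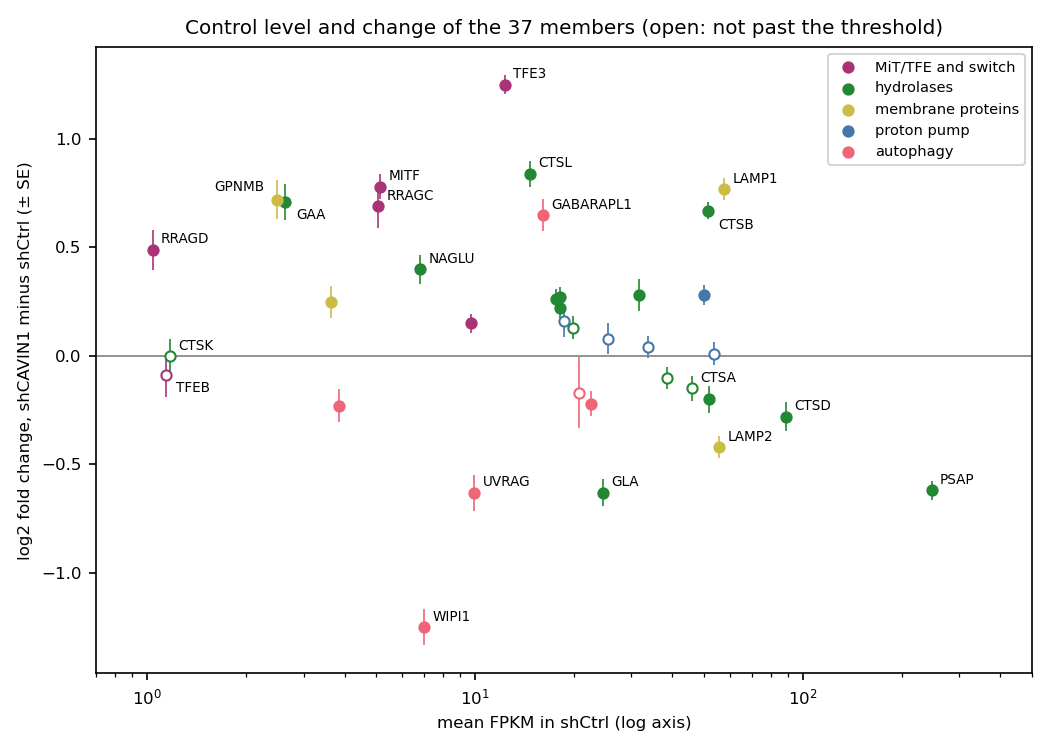
Mean FPKM in shCtrl (x axis, log scale) against the log2 fold change of shCAVIN1 minus shCtrl with its SE (y axis) for the 37 members, coloured by role, with open points for members that did not pass the test. PSAP at 247.3 FPKM is the most abundant and fell, and the 2 members past 1 on the log2 scale, TFE3 and WIPI1, lie on opposite sides.

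The rest of the pathway was read from 6 lists of 206 further genes, of which 192 passed the filter on low values. In these lists 61 rose and 49 fell, a called share of 57.3% beside 55.5% of all tested genes (27.3% higher, 28.2% lower). By list, the called share was 57.1% for hydrolases, 55.2% for membrane proteins and transporters and 50% for pump genes. It was 67.3% for autophagy genes, 38.1% for Rag, Ragulator and mTORC1 genes and 61.3% for enzyme delivery. Among 42 tested hydrolases outside the members, 16 rose and 8 fell, and the median of their log2 fold changes was 0.11. The cysteine protease CTSO rose 3.05-fold, from 1 ± 0.0962 to 3.07 ± 0.263 FPKM, and the carboxypeptidase CPVL rose 3.88-fold, from 0.431 ± 0.0788 to 1.67 ± 0.189 FPKM, both at low levels. EPDR1, a lysosomal glycoprotein, fell from 2.47 ± 0.17 to 0.0397 ± 0.0115 FPKM.

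Among 29 other tested membrane proteins and transporters, 13 rose and 3 fell, with a median of 0.19, and the falls became 1 without shCAVIN1 replicate 2, shCAVIN1 replicate 3, shCtrl replicate 1 or shCtrl replicate 3. ATP13A2, a polyamine exporter of the lysosome, rose 2.46-fold from 4.47 ± 0.0599 to 11 ± 0.1 FPKM, and MCOLN3, a relative of MCOLN1, rose 1.92-fold to 2.6 ± 0.0838 FPKM. SIDT2, an RNA and ion transporter, fell to 58.5% of its control level of 6.82 ± 0.933 FPKM. Of 20 other pump genes, 9 rose and 1 fell, against 1 and 0 among the 5 members. ATP6V1D of the central stalk rose 1.55-fold to 51.9 ± 0.45 FPKM and ATP6V0E2 of the membrane sector rose 1.4-fold to 32.9 ± 1.38 FPKM, and WDR7, an assembly partner of the pump, fell to 66.3% of control. WDR7 lost its call after rescaling to TPM (log2 -0.41) and without shCAVIN1 replicate 2 (-0.51), shCAVIN1 replicate 3 (-0.45) or shCtrl replicate 3 (-0.48), which left the list without a fall. The falls among these pump genes were 2 without shCAVIN1 replicate 1 or shCtrl replicate 1, and 3 without shCtrl replicate 2.

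Of 49 other tested autophagy genes, 9 rose and 24 fell, with a median log2 fold change of -0.21, close to the -0.22 of the 6 members. ATG9A, the lipid scramblase of early autophagosomes, fell from 20.9 ± 1.35 to 12 ± 0.173 FPKM (log2 -0.77, adjusted p = 0.000117). The cargo receptor SQSTM1, also called p62, rose 2.3-fold from 63.3 ± 2.08 to 145.4 ± 2.39 FPKM (log2 1.19, adjusted p = 1.24e-05), and DRAM1, a p53-induced lysosomal membrane protein, rose 2.22-fold to 8.12 ± 0.296 FPKM. Without shCtrl replicate 2, 15 of these genes rose, and after rescaling to TPM 5 rose and 5 fell, with a median of -0.09. Among 21 tested Rag, Ragulator and mTORC1 genes outside the members, 5 rose and 3 fell. The mTORC1 subunit MLST8 rose 1.42-fold to 26 ± 3.63 FPKM, the lysosomal arginine sensor SLC38A9 fell to 60.4% of control, and DEPDC5, which restrains the Rag GTPases, fell to 73.3% of control. Of 31 genes that deliver enzymes to the lysosome or position it, 9 rose and 10 fell, with a median of -0.05 that turned to 0.07 after rescaling to TPM. The tethering subunit VPS41 and the adaptor subunit AP1G1 fell to 62.9% and 67.5% of control. After rescaling to TPM the called rises and falls were 31 and 11 over the 6 lists, and the calls of DEPDC5 (log2 -0.29) and AP1G1 (-0.43) were lost.

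**Figure D5:**
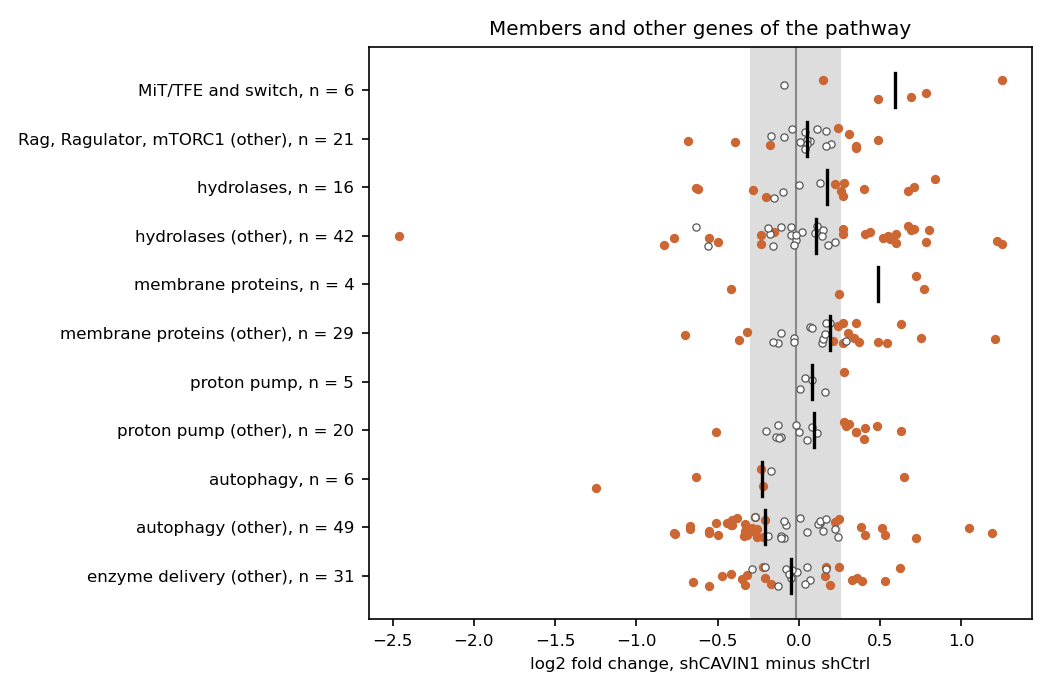
Log2 fold changes of shCAVIN1 minus shCtrl (x axis) for the members and the other tested genes of each part of the pathway (rows, with the number tested). Orange points passed the test, open points did not, black bars are medians, and the grey band and line are the middle 50% and the median of all tested genes. The medians of both autophagy rows (-0.22 and -0.21) lie left of the line at -0.02, and that of the MiT/TFE factors and their switch (0.59) lies right of the band.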

How the data were processed

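The authors deposited 1 table of FPKM values with 1 column per library (6 libraries, 3 of shCtrl and 3 of shCAVIN1). The submitters' processing notes name TopHat, TopHat2 (as version 2.2.5), CASAVA and bcl2fastq (version 2.17.1.14), with GRCh38 as the build. The kit was stranded, per the labels' protocols. The quantifier and its annotation, filters and use of strand are, beyond this, not given in the sources used here, so opposite-strand overlaps of over 3% of a member's exonic bases with a gene of the table are named, and overlaps with genes not analysed here are mostly left out. FPKM divides by the mapped fragments of a library, so a few abundant RNAs can lower the values of all others: the 10 highest rows held 21.1% to 42.5% of a library's FPKM sum, the sums were 758836.6 to 1043843, and RN7SK, a small nuclear RNA, ranged from 106035 to 151555 except in shCtrl replicate 2, where its value was 0. Sequencing depth is unknown, and no counting interval can be given.

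Genes with a mean FPKM of at least 0.5 were fitted in R 4.3.3 by limma 3.58.1 on log2(FPKM + 0.5), with group alone in the model, a mean-variance trend, Benjamini-Hochberg adjustment and a threshold of 0.05. All 37 members passed the filter. The members and lists were chosen with earlier results of these data known. Of 287 list entries, 4 matched through an older symbol. Positions and overlaps come from GENCODE 29 and promoter windows from RefSeq. Named with every library's value are the 3 MiT/TFE factors, members past the threshold with an absolute log2 fold change of at least 0.5 and, in a role with fewer than 3 such members, the next largest changes up to 3; in other lists, named are the up to 3 largest changes past the threshold without overlap. A gene this rule names in the list of delivery to the lysosome is not reported here. RRAGD and MAP1LC3B were given library by library after their values were seen. The further pathway genes with a CLEAR core and the LC3 and GABARAP genes outside the members were also named after their values were seen. The 16 alternatives changed the pseudocount, filter, scaling, variance model, block or libraries.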

Additional observations from a re-analysis of the deposited data

How the results depend on the processing

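Of the counts over all genes, members and other pathway genes, those that moved by over 1.5 times did so after rescaling to TPM, and the cause was not tested: 3496 of all tested genes were called (2254 higher, 1242 lower) against 7734, with 11 members higher and 2 lower and 31 other pathway genes higher and 11 lower. Under the other 15 alternatives the members called higher numbered 15 to 20 and those called lower 6 to 10. With 1 library left out, 6227 to 8511 genes were called. The scaling to the protein-coding sum was chosen after seeing the data. Directions turned for 3 members that did not pass the test in either setting: CTSK (-0.01 with protein-coding scaling, -0.02 without shCAVIN1 replicate 1, -0.01 without shCAVIN1 replicate 2, -0.02 without shCtrl replicate 2, and -0.02 to 0.04 over all libraries left out), CTSZ (0.02 after TPM) and ATP6AP1 (-0.01 with protein-coding scaling, -0.03 with quantile normalization, -0.04 without shCtrl replicate 3, and -0.04 to 0.05 over all libraries left out). In a model with a replicate block, 7167 genes were called, 17 members rose and 8 fell, and the calls of FLCN (0.15) and ULK1 (-0.23) were lost. The deviations of same-numbered libraries correlated at 0.0936, 0.0714 and -0.0282, so the numbers were not taken to pair the samples. FPKM without depth limits most what can be said of low genes such as TFEB, CTSK and RRAGD, and at a filter of 2 FPKM these 3 are not tested.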
